A study of Mus musculus with 9 samples.

Results

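The replication-dependent histone genes were examined in the RNA bound to Roquin in a mouse macrophage cell line. They were taken as every entry of the deposited table whose gene symbol begins with Hist1h, Hist2h, Hist3h or Hist4h. This gave 68 of 20467 genes: 6 for the linker histone H1, 18 for H2A, 19 for H2B, 12 for H3 and 13 for H4. By the gene annotation, 54 lie in the Hist1 cluster on chromosome 13, 10 in the Hist2 cluster on chromosome 3, 3 in the Hist3 cluster on chromosome 11, and Hist4h4 lies alone on chromosome 6. One of them, Hist3h2bb-ps, is annotated as a pseudogene.

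Histones package DNA into nucleosomes, with H2A, H2B, H3 and H4 forming the core and H1 binding the linker DNA. The replication-dependent genes have no introns and supply histones while DNA is copied. Their mRNAs end in a short stem-loop in place of a poly(A) tail, and the stem-loop binding protein SLBP holds it and guides processing, translation and decay. Roquin, encoded by Rc3h1 and its paralog Rc3h2, recognises a stem-loop of another kind, the constitutive decay element, in the 3′ untranslated regions (3′ UTRs) of mRNAs such as that of the cytokine TNF, and recruits enzymes that shorten the poly(A) tail.

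The cells were RAW264.7, a mouse macrophage-like line transformed by a leukaemia virus, and all of them, controls included, had received lipopolysaccharide (LPS, a bacterial cell wall component) at 100 ng/ml for 2 hours. RNA was sequenced from 3 Roquin IPs (immunoprecipitations with rabbit antibodies to Roquin, caught on protein A/G beads), 3 control IPs (the same beads with no antibody) and 3 inputs (the lysate before precipitation). The 3 libraries of each group are described as biological replicates of one cell line. Because the control IP carried no antibody, binding to an unrelated antibody was not measured.

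The stem-loops show how these genes differ from the mRNAs that Roquin is known for, so one or more of each class is printed here beside the decay elements of Tnf and Nfkbid, a regulator of NF-κB. The sequences were read 5′ to 3′ on the transcript strand from the GENCODE M21 transcripts (build GRCm38), and all lie in the 3′ UTR. Capitals mark the 16 bases of the histone stem-loop, with a stem of 6 base pairs around a loop of 4 bases, or the 9 bases of the decay element, with 3 pairs around a loop of 3 bases. The histone stem-loops lie at chr13:23621782-23621797 (minus strand) for Hist1h1e, chr3:96246032-96246047 (plus) for Hist2h2aa1, chr13:22043638-22043653 (plus) for Hist1h2bj, chr13:23561903-23561918 (minus) for Hist1h3e, chr13:21812129-21812144 (plus) for Hist1h4m, chr13:21735437-21735452 (plus) for Hist1h4j and chr6:136803998-136804013 (minus) for Hist4h4. The decay elements lie at chr17:35199588-35199596 (minus) for Tnf and chr7:30428405-30428413 (plus) for Nfkbid. Nfkbid has another match at chr7:30428433-30428441 (plus), which is not printed.
Hist1h1e: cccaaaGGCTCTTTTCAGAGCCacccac
Hist2h2aa1: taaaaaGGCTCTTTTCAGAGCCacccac
Hist1h2bj: tccaaaGGCTCTTTTCAGAGCCacgcac
Hist1h3e: caaaacGGCTCTTTTAAGAGCCacctcc
Hist1h4m: actaaaGGCCCTTTTCAGGGCCatc
Hist1h4j: cctaaaGGTCCTTTTCAGGACCaccaca
Hist4h4: cacaaaGGCCCTTTTCAGGGCCcacaaa
Tnf: gacatgttTTCTGTGAAaacggagc
Nfkbid: taggtgatTTCTGTGAAatcgagcc

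All 68 symbols matched the annotation, and the histone stem-loop was found after the stop codon in 46 of them. Of the other 22, 16 had no annotated 3′ UTR of 16 bases or more in the transcript used. The search could not have found it there, except in the pseudogene Hist3h2bb-ps, whose whole transcript was searched. Over the genome's protein-coding genes, 62 of 20949 with a 3′ UTR of 16 bases or more (0.296%) held the stem-loop pattern in any protein-coding transcript. In all 34 matches among the H1, H2A, H2B and H3 genes the stem began GGCTC. In the 12 matches among the H4 genes it began GGCCC in 10 and GGTCC in 2, Hist1h4b and Hist1h4j. The first base of the stem lay 21 to 58 bases after the stop codon, with a median of 31. In 23 genes the annotated transcript ran on for more than 100 bases past the stem-loop, and in 14 the poly(A) signal AATAAA followed it at any distance. Among the transcripts of a gene, those with the stem-loop were preferred, then the longest coding part, then the greatest length. That choice favours long 3′ ends, and use of these signals was not tested. The decay element was searched on the transcript strand as TTC, then a pyrimidine, a purine and a pyrimidine, then GAA. It was found in 0 of the 52 histone genes with a 3′ UTR of 16 bases or more, against 5.67% of all protein-coding genes with one. These shares are not like for like. For each histone gene 1 transcript was searched, while any protein-coding transcript counted for the other genes. Lengths were not matched, and the histone 3′ UTRs searched ran from 37 bases in Hist2h3b to 4931 in Hist1h1d. In the coding sequences of the 67 protein-coding histone genes the decay element was found in 0. The authors' deposited table likewise put all 68 in its class without a decay element, against 188 of 20467 genes (0.919%) in its other classes.

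**Figure D1:**
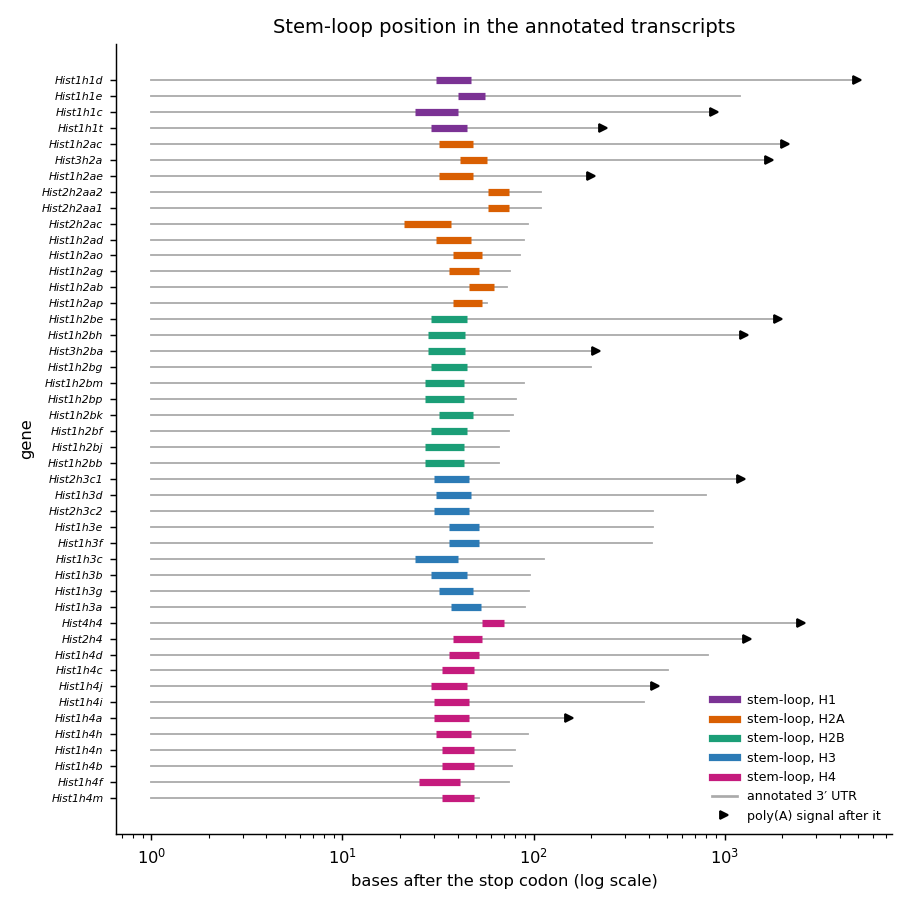
Position of the histone stem-loop in the annotated transcript of the 46 genes that hold it; the horizontal axis gives bases after the stop codon on a log scale, the coloured bar the stem-loop by class, the grey line the annotated 3′ UTR and the arrowhead a later poly(A) signal. The stem-loops start between 21 and 58 bases after the stop codon in every class, while the annotated 3′ ends differ widely and 23 lie more than 100 bases beyond the stem-loop.

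Levels are given in CPM, counts per 1000000 counts of a library, on library sizes scaled by TMM, edgeR's trimmed mean method. Fold changes are given as log2 with the standard error (SE) of the fit. A gene was called at an adjusted p under 0.05 in edgeR's quasi-likelihood test with Benjamini-Hochberg adjustment over the 9567 genes that passed a filter on low counts. That fit held the group alone and did not pair same-numbered libraries. Calls with the replicate number as a block are given beside it. The libraries held 3547517 to 12975767 counts in the Roquin IPs, 2929537 to 8466096 in the control IPs and 1799390 to 2122288 in the inputs, so 1 CPM stood for between 2.02 and 11.6 counts. Tnf alone took 17.6% to 27.2% of the counts of the Roquin IPs, against 0.143% to 0.262% in control IPs and 0.201% to 0.516% in inputs. The cells carried macrophage markers at a summed 986 to 2016 CPM per library, and the summed markers of T cells, B cells, fibroblasts, epithelium and endothelium stayed at or below 1.19 CPM. Of the histone genes, 66 passed the filter, and the other 2 were Hist1h1t, a testis H1 gene with 1 count in all 9 libraries together, and Hist2h2be, with 0 to 30 counts per library.

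The first replicate of each group was low for these genes, and input 1 the most. Input 1 was the lowest of the 9 libraries for 48 of the 63 histone genes that had no count of 0. Its median gene lay 0.98 below its own mean over the 9 libraries on the log2 scale. Control IP 1 was the lowest for 7 and Roquin IP 1 for 6, with medians of -0.27 and -0.49, each the lowest of its group. Leaving out input 1 alone, as below, kept Roquin IP 1 and control IP 1. The highest library was control IP 3 for 32 genes and input 2 for 25. Histone genes together took 0.590%, 0.849% and 0.963% of the counts in Roquin IPs 1 to 3, against 1.14%, 1.96% and 2.62% in control IPs 1 to 3 and 0.747%, 2.12% and 1.47% in inputs 1 to 3. Every Roquin IP was thus below every control IP in this share, while it overlapped the inputs. These shares do not allow for the reads that Tnf and other bound mRNAs took in the Roquin IPs. Scaled by TMM, the summed histone level was 8773, 13934 and 12016 CPM in Roquin IPs 1 to 3, against 10208, 16047 and 19102 CPM in control IPs 1 to 3 and 6457, 17262 and 13082 CPM in inputs 1 to 3, and all groups overlapped.

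**Figure D2:**
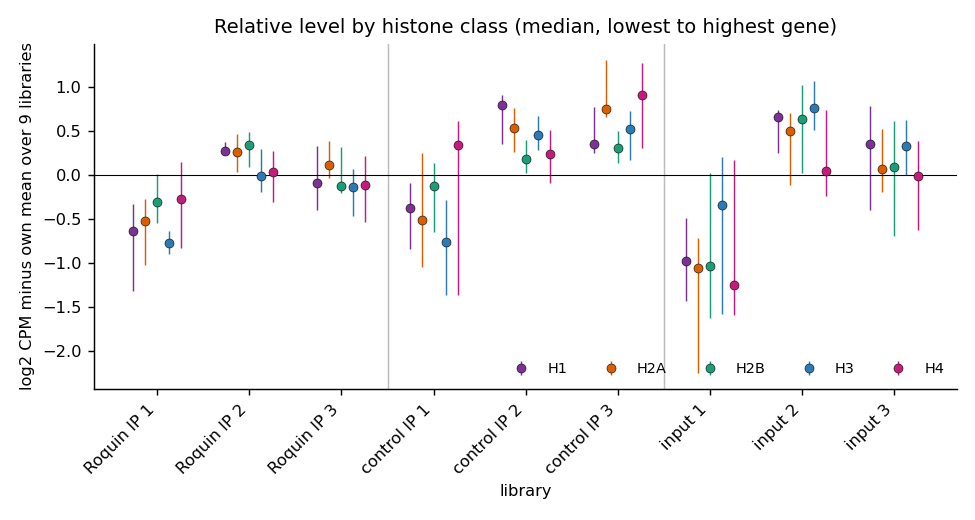
Level of each histone class in each library; the vertical axis is log2 CPM minus the gene's own mean over the 9 libraries, points are class medians and lines run from the lowest to the highest gene. Input 1 lies lowest in every class but H3, with an H4 median of -1.25, and control IP 3 lies highest in H2A and H4.

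Setting Roquin IP against control IP asks which mRNAs Roquin held beyond what stuck to the beads. No histone gene was called among them. Of the 66 tested, 0 were called higher and 0 lower, against 3.76% of all genes called higher (360 of 9567) and 0 called lower. DESeq2 also called 0, and at an unadjusted p under 0.05 in edgeR there were 0 higher and 3 lower, Hist1h4m, Hist1h4n and Hist2h4, against 7.93% of all genes higher and 2.13% lower. The log2 fold changes of the 66 ran from -0.86 for Hist1h4m to 0.94 for the pseudogene Hist3h2bb-ps, with a median of -0.40, against a median of -0.12 over all genes tested. The median of -0.40 spanned -0.65 to -0.15 when 1 library at a time was left out.

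By contrast, Tnf had 307641, 446945 and 220176 CPM in the Roquin IPs, against 2339, 1761 and 1043 CPM in the control IPs. No library of one group came near the other, and the difference on the log2 scale was 7.57 (SE 0.63; edgeR adjusted p 2.97e-06). On the same scale Nfkbid stood 8.87 higher (SE 1.00, adjusted p 4.42e-05) and Rc3h1, the mRNA of Roquin itself, 6.63 higher (SE 0.43, adjusted p 6.86e-07) in the same fit. Among the 37 tested genes with a conserved decay element in the 3′ UTR by the authors' deposited table, 23 were called higher, with a median of 2.48. Of the 38 with a nonconserved one there, 4 were called higher, and of the 55 with one in the coding sequence, 4. Most of the 360 genes called higher, 329, were in the class without a decay element, which had 9437 tested genes. With any decay element by that table, 31 of 130 tested genes were called higher, a larger share than without one. The smallest log2 fold change of any gene called higher was 1.01.

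For 62 of the 66 histone genes the 95% interval of the fold change ended below a 2-fold rise in Roquin IP, as it did for 63.9% of all genes tested. The exceptions were Hist3h2bb-ps, Hist3h2ba, Hist2h2bb and the testis gene Hist1h2aa. The first, second and last of these have low counts, with 0 in control IP 1, and Hist2h2bb reached 1.17 at the upper end of its interval. Same-numbered libraries were also set side by side. Of the 63 histone genes with no count of 0, 37 (58.7%) were lower in Roquin IP in all 3 same-numbered pairs and 0 were higher in all 3, against 27.2% lower and 20.3% higher over all genes with no count of 0. Histone genes share sequence and reads, as described below, so these are not separate observations.

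**Figure D3:**
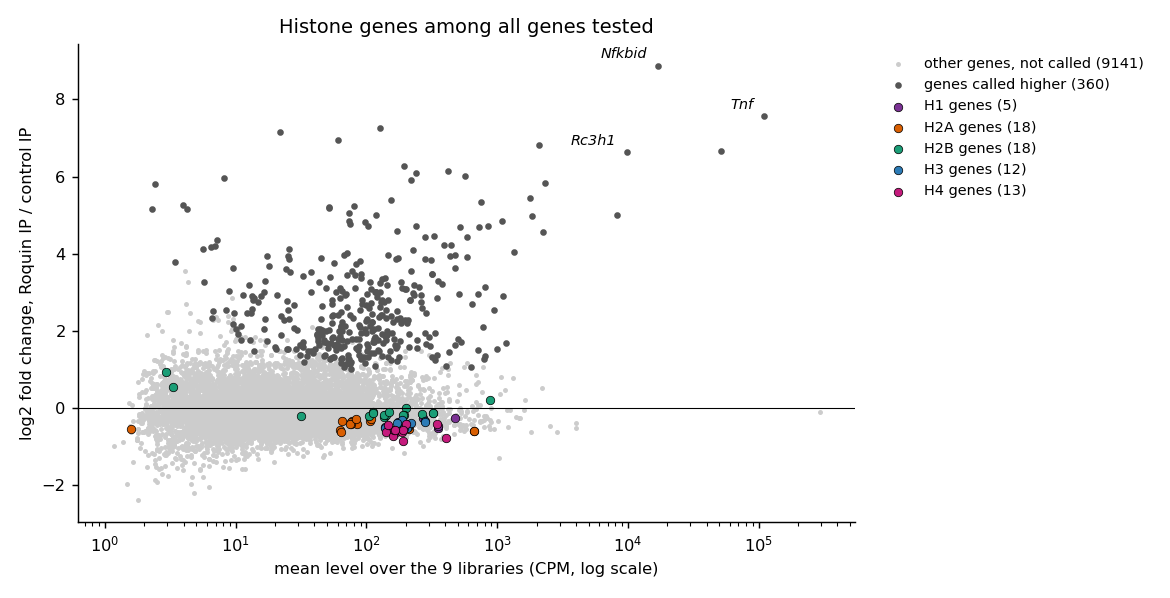
Log2 fold change of Roquin IP over control IP (vertical axis) against the mean level over the 9 libraries (horizontal axis, CPM, log scale) for the 9567 genes tested; dark points are the 360 genes called higher and coloured points the 66 histone genes by class. The histone genes lie between -0.86 and 0.94, while Tnf, Nfkbid and Rc3h1 lie between 6.63 and 8.87.

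By class, the H4 genes had a median of -0.61 (range -0.86 to -0.41), against -0.41 for H2A (-0.63 to -0.28), -0.41 for H3 (-0.53 to -0.32), -0.36 for H1 (-0.54 to -0.27) and -0.15 for H2B (-0.23 to 0.94). H4 was not the lowest without control IP 1, where the medians were -0.74 for H3, -0.70 for H2A and -0.68 for H4, nor in the pair of replicate 2, where they were -0.43 for H1, -0.39 for H3 and -0.21 for H4. All H1, H2A, H3 and H4 genes were below 0 under TMM, under RLE factors, in DESeq2 and on library size alone, as were 14 of 18 H2B genes under TMM. The H2B median moved to 0.01 without Roquin IP 1, and the other class medians stayed below 0 in every alternative run. The groups did not overlap for 8 genes, all H4 and all lower in Roquin IP, against 8.00% of all genes lower and 10.7% higher without overlap. On library size alone the median of all genes moved to -0.96 and that of the histone genes to -1.27, and 48 histone genes were called lower, as were 3708 of all 9567 genes (38.8%). Relative to the median of all genes, the histone median was -0.27 with TMM and -0.31 on library size alone. With the replicate number as a block, 1 histone gene was called lower, Hist1h4m, among 11 of all genes.

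**Figure D4:**
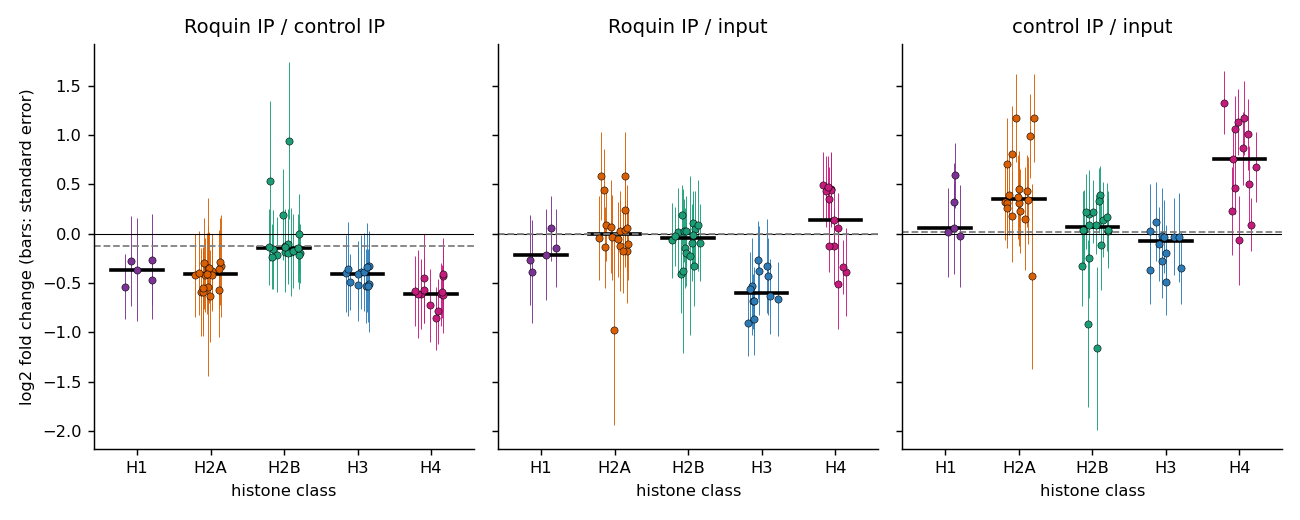
Log2 fold changes of the 66 tested histone genes by class in the 3 comparisons; points are genes with their standard errors, black bars are class medians and the dashed line is the median of all genes tested. With all libraries, H4 has the lowest median in Roquin IP over control IP (-0.61) and the highest in control IP over input (0.76), and H3 the lowest in Roquin IP over input (-0.60).

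Roquin IP against input sets the bound RNA beside the RNA of the lysate, and shares the Roquin IP libraries with the first comparison. Again 0 of 66 histone genes were called higher and 0 lower, against 5.45% of all genes called higher and 2.79% called lower (8.24% in either direction), and DESeq2 called 0 too. At an unadjusted p under 0.05 there were 0 higher and 3 lower, Hist1h3c, Hist1h3e and Hist1h3f, against 12.1% of all genes higher and 10.7% lower. The histone median was -0.10, against -0.01 over all genes tested, and it moved to -0.42 without input 1 and to 0.28 without input 2. The groups did not overlap for Hist1h4j, which was higher in Roquin IP, and for Hist1h3c and Hist1h3e, which were lower, against 16.5% of all genes higher and 14.3% lower without overlap. On library size alone 11 histone genes were called lower, as were 27.9% of all genes, and the median of all genes there was -0.76.

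The classes separated more in this comparison. All 12 H3 genes were below input, with a median of -0.60 (range -0.90 to -0.27), while the H4 genes had a median of 0.14 (-0.51 to 0.49), which turned to -0.63 on library size alone and to -0.13 without input 1. H2A had a median of -0.0027, H2B of -0.05 and H1 of -0.21, and these were 0.35, 0.30 and 0.10 without input 2. The H3 median stayed below 0 in every alternative run, from -1.36 on library size alone to -0.27 without input 2. Of the 12 H3 genes, 11 were lower in Roquin IP in all 3 same-numbered pairs, against 27.7% of all genes with no count of 0. For H4, 5 of 13 were higher in all 3 pairs and 1 was lower, against 28.7% of all genes higher. The H3 genes shared 73.6% to 100% of their coding windows of 36 bases with other histone genes. As in the first comparison, genes of a class are thus not separate observations, in these counts or in the calls that follow. With the replicate number as a block, 5 H3 genes were called lower, Hist1h3b, Hist1h3c, Hist1h3d, Hist1h3e and Hist1h3f, and 2 H2A genes were called higher, Hist2h2aa1 and Hist2h2aa2, which are nearly one measurement. The block called 769 of all genes lower (8.04%), against 267 without it, and 956 higher (9.99%), against 521 without it.

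Control IP against input measures what the beads alone took from the lysate, and shares the control libraries with the first comparison and the inputs with the second. Here 0 of 66 were called in either direction, against 0.815% of all genes called higher and 0.303% called lower (1.12% in either direction), and 10 had an unadjusted p under 0.05, all of them higher in control IP, against 10.8% of all genes higher at that threshold. They were 7 H4 genes (Hist1h4a, f, i, j, k, m and n) and 3 H2A genes (Hist2h2aa1, Hist2h2aa2 and Hist2h2ac). The smallest adjusted p was 0.0541, for Hist1h4m. With the replicate number as a block 8 were called higher (Hist1h4i, j, k, m and n, Hist2h2aa1, Hist2h2aa2 and Hist2h2ac), and 636 of all 9567 genes (6.65%), against 78 without the block. With no filter on low counts 8 were called higher among 335 of all genes, and in DESeq2 4 (Hist1h4i, j, m and n) among 397. Without control IP 1 Hist1h4m was called.

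The histone median in control IP against input was 0.19, against 0.02 over all genes. It was -0.13 without input 1, the lowest library for most of these genes, and 0.57 without input 2. By class the medians were 0.76 for H4 (range -0.06 to 1.33), 0.36 for H2A (-0.43 to 1.17), 0.07 for H2B, 0.05 for H1 and -0.07 for H3, which turned to 0.03 on library size alone and to 0.17 without control IP 1. Without input 1 they were 0.49 for H4, 0.06 for H2A, -0.27 for H2B, -0.34 for H1 and -0.37 for H3. The groups did not overlap for 6 genes, all higher in control IP, against 12.2% of all genes higher and 10.8% lower. The 6 were Hist1h4i, j, k, m and n and the testis gene Hist1h2ba. Of the 63 genes with no count of 0, 16 were higher in control IP in all 3 same-numbered pairs and 2 lower, against 23.0% of all genes higher and 21.5% lower. Here too, they are not separate observations.

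The H1 genes encode the linker histones, and their coding sequences are the least alike, so their counts can be told apart best. Hist1h1e, the most abundant, had 279, 561 and 404 CPM in Roquin IPs 1 to 3, against 242, 753 and 512 CPM in control IPs 1 to 3 and 219, 722 and 553 CPM in inputs 1 to 3. The first library was the lowest of each group, and all groups overlapped. Its fold changes were -0.28 (SE 0.45) over control IP and -0.26 (SE 0.45) over input. Hist1h1c had 270, 410 and 257 CPM in Roquin IPs, against 317, 638 and 405 CPM in control IPs and 242, 404 and 256 CPM in inputs. Control IP 2 was the highest library, the fold changes of Roquin IP were -0.54 (SE 0.33) over control IP and 0.06 (SE 0.33) over input, and the groups overlapped. Hist1h1d had 242, 391 and 279 CPM in Roquin IPs, against 256, 584 and 422 CPM in control IPs and 180, 526 and 303 CPM in inputs, again with overlap. Hist1h1a and Hist1h1b, which shared 0% and 1.88% of their coding windows with other histone genes, stood at -0.36 (SE 0.52) and -0.27 (SE 0.46) over control IP.

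Among the H2A genes, whose product pairs with H2B in the nucleosome, Hist2h2aa1, Hist2h2aa2 and Hist2h2ac were the most abundant. Hist2h2ab, of the same cluster, had the lowest mean over the 9 libraries but for Hist1h2aa. It had 45.3 to 67.0 CPM in Roquin IPs, 65.2 to 119 CPM in control IPs and 11.4 to 71.2 CPM in inputs. Hist2h2aa1 and its copy Hist2h2aa2 differed by at most 3 counts in any library and count here as one measurement. Hist2h2aa1 had 451, 725 and 719 CPM in Roquin IPs 1 to 3, against 493, 990 and 1369 CPM in control IPs 1 to 3 and 167, 571 and 527 CPM in inputs 1 to 3. Control IP 3 was the highest library and input 1 by far the lowest, and the groups overlapped in each comparison. Roquin IP stood at -0.59 (SE 0.44) over control IP and at 0.58 (SE 0.45) over input, which turned to -0.17 on library size alone, and control IP 1.17 (SE 0.45, unadjusted p 0.0205, adjusted p 0.164 in edgeR) over input. With the replicate block it was called higher over input in Roquin IP (0.74, adjusted p 0.0446) and in control IP (1.23, adjusted p 0.00721). Hist2h2ac had 145, 199 and 246 CPM in Roquin IPs, against 170, 227 and 468 CPM in control IPs and 68.0, 174 and 194 CPM in inputs, and ran in the same order of groups. Hist1h2aa, a testis H2A gene, had at most 3.16 CPM in any library.

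The H2B genes lay nearest to the median of all genes in Roquin IP over control IP. Hist2h2bb had 670, 1121 and 1004 CPM in Roquin IPs 1 to 3, against 618, 813 and 1014 CPM in control IPs 1 to 3 and 274, 1501 and 864 CPM in inputs 1 to 3. The inputs spanned the whole range of the IPs, and its fold changes were 0.19 (SE 0.46) over control IP and 0.08 (SE 0.46) over input. It shared 4.62% of its coding windows with other histone genes, so few of its reads could belong to them. Hist1h2bq and Hist1h2br had the same count in all 9 libraries, with 222, 415 and 275 CPM in Roquin IPs, against 280, 345 and 377 CPM in control IPs and 136, 478 and 360 CPM in inputs. They stood -0.13 (SE 0.39) over control IP and -0.09 (SE 0.39) over input. Hist3h2ba had 2.10, 3.41 and 4.35 CPM in Roquin IPs, against 0, 3.92 and 2.75 CPM in control IPs and 2.44, 6.33 and 4.46 CPM in inputs, and its fold change of 0.53 had an SE of 0.81.

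Mouse H3 genes encode H3.1 (Hist1h3a, g, h and i) or H3.2 (Hist1h3b to f and the Hist2 genes), replication-coupled forms that pair with H4. The most abundant, Hist2h3c2, had 136, 311 and 266 CPM in Roquin IPs 1 to 3, against 98.4, 397 and 421 CPM in control IPs 1 to 3 and 187, 415 and 299 CPM in inputs 1 to 3. All groups overlapped, with -0.36 (SE 0.47) over control IP and -0.33 (SE 0.48) over input. Hist2h3c1 had 140, 301 and 261 CPM in Roquin IPs, against 104, 381 and 404 CPM in control IPs and 189, 387 and 337 CPM in inputs, with -0.34 (SE 0.45) over control IP and -0.38 (SE 0.45) over input. Hist2h3b had 132, 235 and 197 CPM in Roquin IPs, against 102, 328 and 309 CPM in control IPs and 163, 294 and 223 CPM in inputs, with -0.39 (SE 0.40) over control IP and -0.27 (SE 0.40) over input. In all 3 genes control IP 1 was the lowest library and the groups overlapped. Hist1h3e gave the lowest ratio to input of the class, with 116, 193 and 144 CPM in Roquin IPs and 224, 378 and 245 CPM in inputs. Every Roquin IP was below every input, and the fold change was -0.90 (SE 0.34, unadjusted p 0.0180, adjusted p 0.123 in edgeR). It was called with the replicate block (-0.91, adjusted p 0.00769). The control IPs had 120, 259 and 223 CPM of it, so they overlapped both. Over input, the 5 H3.2 genes of the Hist1 cluster had a median of -0.69, the 4 H3.1 genes -0.55 and the 3 H3.2 genes of the Hist2 cluster -0.33.

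As a share of all histone counts, which no scaling of the library changes, H3 took 15.0%, 16.9% and 17.0% in Roquin IPs 1 to 3, against 12.9%, 19.5% and 16.8% in control IPs 1 to 3 and 28.6%, 22.2% and 21.3% in inputs 1 to 3. Every IP library was below every input. The share of H2A was 20.7%, 22.3% and 24.9% in Roquin IPs, against 19.6%, 24.6% and 27.7% in control IPs and 15.5%, 18.0% and 19.6% in inputs, with no overlap between Roquin IP and input. Hist2h2aa1 and Hist2h2aa2, which are nearly one measurement, were both counted in it. Each held 1075 of the 4327 H2A counts in Roquin IP 1 and 1063 of the 5176 in input 3. The lack of overlap is therefore not shown for the other H2A genes. The shares of H1, H2B and H4 overlapped among all 3 groups.

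The H4 genes held the members nearest to a call. Hist1h4m had 122, 174 and 189 CPM in Roquin IPs 1 to 3, against 218, 246 and 417 CPM in control IPs 1 to 3 and 92.4, 146 and 112 CPM in inputs 1 to 3. Every control IP was above every other library, and the Roquin IPs overlapped the inputs. The fold changes were -0.86 (SE 0.31, unadjusted p 0.0162, adjusted p 0.268 in edgeR) for Roquin IP over control IP and 1.33 (SE 0.32, unadjusted p 0.000949, adjusted p 0.0541) for control IP over input. With the replicate block both were called, at -0.85 (adjusted p 0.0399) and 1.30 (adjusted p 0.00530). Its coding sequence was wholly covered by windows found in other histone genes and was 100% identical to that of Hist1h4n. The values of Hist1h4m and Hist1h4n are therefore not separate observations. Hist1h4n, the most abundant H4 gene, had 267, 367 and 411 CPM in Roquin IPs, against 431, 490 and 882 CPM in control IPs and 194, 333 and 295 CPM in inputs. Its control IPs too lay above all other libraries, with 1.13 (SE 0.33, unadjusted p 0.00433, adjusted p 0.0899) over input.

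Not every H4 gene did so. Hist1h4d had 352, 274 and 235 CPM in Roquin IPs, against 423, 317 and 419 CPM in control IPs and 304, 438 and 346 CPM in inputs, with overlap throughout and 0.09 (SE 0.27) for control IP over input. Hist1h4f had 205, 224 and 159 CPM in Roquin IPs, against 260, 219 and 301 CPM in control IPs and 62.7, 221 and 144 CPM in inputs, with input 1 far below the rest. Hist4h4, which shared 0% of its coding windows with other histone genes, had 81.4, 110 and 153 CPM in Roquin IPs, against 51.2, 137 and 282 CPM in control IPs and 149, 176 and 169 CPM in inputs. Control IPs 1 and 3 were its lowest and highest libraries, and control IP stood at -0.06 (SE 0.45) over input. Hist2h4, with 10.8% of windows shared, had 152, 135 and 127 CPM in Roquin IPs and 220, 153 and 249 CPM in control IPs, which narrowly did not overlap, and a fold change of -0.59 (SE 0.27, unadjusted p 0.0448, adjusted p 0.475). Its inputs had 127, 153 and 170 CPM.

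Levels were set beside each other per kilobase of coding sequence. Hist2h2bb led in Roquin IP with 2446 ± 614 CPM per kilobase, and had 2139 ± 520 in the control IPs and 2309 ± 1611 in the inputs (SD, n = 3 each). Hist2h2aa1 followed with 1607 ± 398 in the Roquin IPs, against 2419 ± 1118 in the control IPs and 1072 ± 564 in the inputs (SD, n = 3 each). Hist1h4n had 1116 ± 237 in the Roquin IPs, against 1926 ± 785 in the control IPs and 878 ± 230 in the inputs (SD, n = 3 each). The class medians in Roquin IP were 487 for H4, 456 for H1, 361 for H3, 355 for H2B and 185 for H2A, against 745, 632, 496, 406 and 239 in the control IPs and 457, 471, 566, 379 and 189 in the inputs, in CPM per kilobase and in the same order of classes. H2A was the lowest in each group, while single genes ranged from 2.65 to 2446 in Roquin IP.

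Near-identical copies limit what single genes can show. Cut into windows of 36 bases, the coding sequences of the 67 protein-coding members shared a median of 80.9% of windows with another member, and the closest member was a median of 98.4% identical. For H1 the median shared was 14.2%, with 32.5% at most. The sources used here do not say how reads that fit several copies were counted, so values of single copies are uncertain. The 13 tested genes with under 50% of windows shared had a median of -0.45 for Roquin IP over control IP, against -0.40 for the 52 with more. For control IP over input these medians were 0.05 and 0.21.

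The ratio to control IP was also set beside what the sequences differ in. The 12 genes with the H4 kind of stem (GGCCC or GGTCC) had a median of -0.61, the 33 tested with GGCTC -0.37, and the 21 tested with no stem-loop in the annotated transcript -0.30. The kind of stem goes with the class, so stem and class cannot be told apart. Genes whose annotated transcript runs more than 100 bases past the stem-loop had a median of -0.43 (22 tested), against -0.41 for those that end sooner (23 tested). Those with a poly(A) signal after the stem-loop had a median of -0.45 (13 tested), against -0.41 without one (32 tested). The libraries were made with a TruSeq RNA kit, whose standard form selects poly(A) RNA, and the labels do not say whether that step was used. How far the counts come from histone mRNAs with a poly(A) tail was not tested.

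The replication-independent histone variants, whose mRNAs mostly end in a poly(A) tail, served as a set of like proteins. Among them, H2afx has mRNAs of both kinds, with the stem-loop end or with a poly(A) tail. Of 12 listed, 9 were tested and 0 were called in any comparison. Their median was -0.28 for Roquin IP over control IP, 0.48 for Roquin IP over input and 0.81 for control IP over input, where 6 had an unadjusted p under 0.05, all higher in control IP, against 10.8% of all genes. With the replicate block 4 were called higher there and 1 in Roquin IP over input, against 6.65% and 9.99% of all genes called higher with it. H2afz, which encodes the H2A.Z variant, had 151, 225 and 261 CPM in Roquin IPs 1 to 3, against 178, 229 and 325 CPM in control IPs 1 to 3 and 126, 185 and 146 CPM in inputs 1 to 3. Its IP groups overlapped, with -0.20 (SE 0.30) between them. H3f3b, one of the genes for H3.3, stood at -0.08 (SE 0.32) over control IP and 0.48 (SE 0.32) over input.

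Of 18 genes listed for histone mRNA 3′ end processing and decay, 17 were tested. In Roquin IP over control IP 1 was called higher and 0 lower, against 3.76% of all genes called higher, with a median of -0.07. The only gene called was Npat, which encodes the co-activator of histone gene transcription, not a processing or decay factor. It had 169, 171 and 170 CPM in Roquin IPs 1 to 3, against 107, 43.3 and 35.1 CPM in control IPs 1 to 3 and 90.4, 68.0 and 61.0 CPM in inputs 1 to 3. Every Roquin IP was above all other libraries, at 1.48 on the log2 scale (SE 0.37; edgeR adjusted p 0.0395). The adjusted p ranged from 0.000427 without control IP 1 to 0.223 without control IP 2, and leaving out any of the other 7 libraries also took it above 0.05, as did library size alone (0.12) and a fit of the 6 libraries compared (0.1). Slbp, the gene of the stem-loop binding protein, had 18.5, 42.4 and 46.7 CPM in Roquin IPs, against 29.2, 30.4 and 56.2 CPM in control IPs and 50.9, 58.9 and 54.6 CPM in inputs. Its Roquin IPs all lay below its inputs, at -0.59 (SE 0.37, adjusted p 0.374), and overlapped the control IPs, at -0.10 (SE 0.37). In this list 0 were called over input in either IP, with 1 higher and 3 lower in Roquin IP and 1 higher in control IP under the replicate block, which also called 2 higher in Roquin IP over control IP. Over all genes the block called 9.99% higher and 8.04% lower in Roquin IP over input. It called 6.65% higher in control IP over input and 5.52% higher in Roquin IP over control IP.

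All 30 listed S phase genes were tested, and 0 were called in Roquin IP over control IP, with a median of -0.31 (with the replicate block 1 was called higher, against 5.52% of all genes). Over input, 2 were called higher in Roquin IP, E2f1 and Tk1, and 6 lower, Mcm4, Mcm6, Pcna, Pola1, Prim1 and Rrm1, against 5.45% of all genes called higher and 2.79% lower. The median of the list was -0.34. Pola1, a subunit of the polymerase that starts DNA strands, had 23.9, 38.1 and 30.1 CPM in Roquin IPs, against 81.4, 125 and 77.4 CPM in inputs, with no overlap and -1.62 (SE 0.32, adjusted p 0.00603, edgeR). Tk1, thymidine kinase, had 71.3, 74.6 and 75.1 CPM in Roquin IPs, against 22.8, 33.6 and 25.8 CPM in inputs, again with no overlap, and 1.43 (SE 0.28, adjusted p 0.00668, edgeR). In control IP over input 1 was called, E2f1, higher by 2.01 (SE 0.38, adjusted p 0.0268, edgeR), against 0.815% of all genes called higher. Under the replicate block 3 were called higher and 4 lower there, against 6.65% and 5.78% of all genes. E2f1, a transcription factor for S phase genes, had 34.8, 48.8 and 56.6 CPM in Roquin IPs, against 65.5, 82.9 and 65.6 CPM in control IPs and 8.14, 19.0 and 26.3 CPM in inputs. In control IP over input its call was lost without Roquin IP 2, control IP 2 or 3, or input 1 or 2 (edgeR adjusted p 0.0556 to 0.11), and with only the 6 libraries compared (0.075). In Roquin IP over input it was lost without any Roquin IP, control IP 2, or input 1 or 2 (0.0507 to 0.134). Rrm1, a subunit of the enzyme that makes DNA precursors, was lost in Roquin IP over input without Roquin IP 1 (edgeR adjusted p 0.0838) or input 2 (0.0586). With 1 library left out, 1 to 6 of these genes were called lower in Roquin IP over input, the fewest without Roquin IP 1 or input 2.

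The authors' deposited table gives its own ratio of the Roquin IPs to the control IPs and a p-value for each gene. For the 66 tested histone genes the ratio in the authors' deposited table ran from 0.56 to 2.06 on a linear scale, with a median of 0.775, and 4 were above 1. Its p-value was 1 for all 68 histone genes. How many of the other genes had that value was not counted, so it is not read as a trait of the histone genes.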

How the data were processed

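RNA from 9 libraries of LPS-treated RAW264.7 cells was read from one deposited table of 20467 named genes. The authors deposited raw counts per gene for each library, per the file headers, with a ratio of the Roquin IPs to the control IPs, a p-value and a decay element class. The header calls that ratio log2, but no deposited value is below 0, so it was read as a linear ratio. CASAVA 1.8.2, BWA and DESeq 1.8.3 are named in the submitters' processing notes; the sources used here do not give the genome build, the annotation or the handling of reads that fit several places. The histone genes and the other lists were chosen with earlier results of these data known.

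Counts of all genes past filterByExpr (minimum count 10) were fitted together over the 9 libraries with edgeR 4.0.16 in R 4.3.3, using TMM factors, the quasi-likelihood test and Benjamini-Hochberg adjustment over all 9567 genes. The script was tested on simulated data. P-values measure the spread between 3 libraries a group. Named with values in each library were all histone genes called in any comparison (0) and the 3 most abundant of each class; Hist1h4m, Hist1h3e, Hist4h4, Hist2h4, Hist3h2ba and the groups of H3 genes were chosen after their values were seen. Of other lists, up to 4 called genes by smallest p are given, with Slbp, H2afz and H3f3b. Alternatives were RLE factors, library size alone, no filter, DESeq2 1.42.0, a replicate block, only the 6 libraries compared, and each library left out. The labels number the replicates without saying what a number shares. Across genes, deviations of same-numbered libraries from their group means correlated at 0.15 to 0.58, above 0.1 in all 9 pairs. Same-numbered libraries were therefore set side by side and used as a block in 1 alternative. The main fit held the group alone and ignored this pairing, so its counts of called genes are those of an unpaired fit. No 2 libraries of a group had counts alike within sampling noise. Sequences came from GENCODE M21 (GRCm38) transcripts, read with Python 3.11.15 and aligned with Biopython 1.88.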

Additional observations from a re-analysis of the deposited data

How the results depend on the processing

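Counts of called histone genes moved as follows. In Roquin IP over control IP, library size alone gave 48 lower and the replicate block 1 lower. In Roquin IP over input, library size alone gave 11 lower, and the block 2 higher and 5 lower. In control IP over input, no filter and the block gave 8 higher each, DESeq2 4, and leaving out 1 library 0 to 1. The block changed no other call of a histone gene. The histone medians on library size alone were -1.27 over control IP and -0.88 over input for Roquin IP.

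Over all genes, those called lower in Roquin IP over control IP (0) became 3708 on library size alone, 21 with no filter, 6 in DESeq2, 11 with the block, and 0 to 3 without 1 library. Those called higher in Roquin IP over input (521) became 259 on library size alone, 956 with the block, and 298 to 679 without 1 library. Those called lower there (267) became 2668, 416 with no filter, 517 in DESeq2, 769 with the block, and 30 to 452 without 1 library. For control IP over input, the 78 higher became 335 with no filter, 397 in DESeq2, 636 with the block, 2 with only the 6 libraries compared, and 0 to 185 without 1 library. The 29 lower became 10 on library size alone, 229, 378, 553 and 1 in those settings, and 0 to 86 without 1 library. The cause was not tested.

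The sign of the following uncalled genes turned, and none was called with the turned sign. On library size alone: Hist2h2bb -0.67 and Tk1 -0.097 in Roquin IP over control IP; Hist1h1c -0.74, Hist2h2aa2 -0.17, Hist2h2aa1 -0.17, Hist2h2ac -0.29, Hist2h2bb -0.69, Hist1h4n -0.40, Hist1h4f -0.33, H2afz -0.26 and H3f3b -0.28 in Roquin IP over input; and Hist2h3c1 0.086 in control IP over input. In control IP over input Hist1h1e was -0.029 with RLE factors and in DESeq2, Hist2h3c2 was -0.016 with RLE factors and -0.017 in DESeq2, and with the block Hist2h3c2 was -0.13 and Hist2h2bb 0.12. Leaving out 1 library gave, in Roquin IP over control IP, -0.61 to 0.14 for Hist1h1e, -0.42 to 0.047 for Hist1h2bq and Hist1h2br, -0.33 to 0.29 for Slbp, -0.38 to 0.066 for H2afz and -0.32 to 0.10 for H3f3b. In Roquin IP over input it gave -0.62 to 0.10 for Hist1h1e, -0.19 to 0.33 for Hist1h1c, -0.44 to 0.33 for Hist1h1d, -0.34 to 0.71 for Hist2h2bb and -0.46 to 0.30 for Hist1h2bq and Hist1h2br. In control IP over input it gave -0.40 to 0.38 for Hist1h1e, -0.53 to 0.52 for Hist2h2bb, -0.32 to 0.43 for Hist1h2bq and Hist1h2br, -0.27 to 0.45 for Hist2h3c2, -0.32 to 0.37 for Hist2h3c1, -0.13 to 0.49 for Hist2h3b, -0.018 to 0.25 for Hist1h4d and -0.90 to 0.029 for Npat. Counts of 1799390 to 2122288 in the inputs limit the precision of both comparisons with input, and 3 libraries a group limit all of them.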
